A study of Mus musculus with 8 samples.

Results

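The transcripts of 37 lysosomal genes were followed through 4 treatment groups of a mouse macrophage line. The genes were picked by symbol, as the rows of the count table whose Ensembl identifier maps to a listed name, and all 37 were found among 55414 rows and were among the 16304 genes tested. They comprise 20 hydrolases (10 proteases, 6 glycosidases and 4 enzymes acting on lipids or lipidated proteins), 2 soluble cofactors, 7 proteins of the lysosomal membrane and 8 components of the vacuolar ATPase (V-ATPase). The cells were iBMDM, immortalized macrophages of wild-type genotype. Cells first received disulfiram (DSF) at 5 μM, or DMSO as solvent, and 0.5 h later lipopolysaccharide (LPS) at 1 μg/ml, or water, for 4 h. The groups are control (solvent, then water), DSF (drug, then water), LPS (solvent, then LPS) and DSF+LPS (drug, then LPS), with 2 libraries each. The study asked whether DSF inhibits signalling from the LPS receptor TLR4. The labels do not state that the libraries of a group came from separate cultures. A p-value here therefore reflects the spread between single samples alone, and that spread may be technical.

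Lysosomes are the acidic compartments in which macrophages digest what they engulf and what autophagy delivers. The V-ATPase pumps protons into them: its cytosolic V1 sector hydrolyses ATP, and its V0 sector in the membrane carries the protons. Most of the soluble hydrolases work best at the acid pH so made, and reach the lysosome by a mannose 6-phosphate tag. The transcription factors TFEB and TFE3 bind a CACGTG-centred site, called the CLEAR element, in the promoters of many lysosomal genes. LPS is a component of the outer membrane of Gram-negative bacteria, and DSF is a drug used against alcohol dependence.

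Library totals lay between 17822041 and 21694922 counts, and levels are given in CPM, the count scaled to a common library size. The 4 libraries with DSF had 23416 to 25081 genes with a count, against 19779 to 20324 in those without. Of 13 macrophage markers 12 reached 1 CPM in every library, and their summed level was 2677 to 3784 CPM. These markers moved with treatment: 7 rose and none fell with LPS, and 4 rose and 5 fell with DSF (median log2 fold change 0.012). In DSF+LPS against LPS 3 rose and 7 fell (median -0.57). The genes shown next, Csf1r and Fcgr1, were both lower with DSF, and the 4 markers that rose are not shown. The growth factor receptor gene Csf1r had 804 and 826 CPM in control, 443 and 478 under DSF, 833 and 775 under LPS and 576 and 494 under both agents, and the Fc receptor gene Fcgr1 had 41.9 and 44.5 CPM in control, a mean of 11.3 under DSF, 52.9 and 49.7 under LPS and 9.89 and 10.2 under both agents. The 8 neutrophil markers summed to at most 1.18 CPM with S100a9 at 0, and the 8 lymphocyte markers to 0.654 to 3.18 CPM with Cd3e, Cd3g, Cd8a and Nkg7 at 0. The 7 dendritic cell markers summed to 2.79 to 6.21 CPM and the 8 fibroblast markers to 0.931 to 3.71 CPM. The 8 epithelial and endothelial markers summed to 18.2 to 20.9 CPM without DSF and to 64.3 to 89.0 CPM with it, mostly from Vwf (11.1 and 10.1 CPM in control, 53.9 and 62.9 with DSF), and 3 of the 8 reached 1 CPM in every library. What part the shifts in these markers, other cells or library composition play in the results was not tested. In bulk samples like these, fewer cells of a type and less RNA per cell cannot be told apart.

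Per kilobase of transcript, the protease genes Ctsz, Ctsb and Ctsd had the most abundant transcripts of the set in control cells. Other protease genes were among the lower ones. Ctsz, which encodes the carboxypeptidase cathepsin Z, had 629.6 CPM per kb ± 24.7 (SD, n = 2), ahead of the cysteine protease gene Ctsb with 426 ± 2.36 and the aspartic protease gene Ctsd with 393 ± 6.42. Lgmn (304 ± 8.24) and the membrane glycoprotein gene Lamp1 (303 ± 1.78) came next and did not differ beyond their spread. Of the V-ATPase genes Atp6v0c had 201 ± 6.18 CPM per kb, and the other 7 lay between 47.4 (Atp6v1h) and 84.1 (Atp6v1b2). The place of Atp6v0c is uncertain, as counts may be shared with its near-identical pseudogene Atp6v0c-ps2. In control the pseudogene had 505 and 473 CPM, and Atp6v0c 243 and 233. At the lower end were Gla with 11.4 ± 0.718, Smpd1 with 4.05 ± 0.00394 and Ctsh with 2.27 ± 0.139 CPM per kb. These orders depend on the reference transcript length taken for each gene, and the forms expressed were not examined. Ctsh, an aminopeptidase gene, was called in none of the 5 comparisons and had 3.28 to 5.40 CPM over the 8 libraries. Together the 37 genes took 1.16% ± 0.0141 of all counts in control, 1.18% ± 0.0198 with DSF, 1.04% ± 0.0134 with LPS and 1.18% ± 0.00283 with both (SD, n = 2). As a share of unscaled totals it was lowest with LPS alone, where both libraries were below those of the other groups. CPM instead uses library sizes multiplied by scaling factors, which were 1.085 and 1.084 in control and 0.965 and 0.9799 with LPS. On that scale LPS stands higher relative to control than in these shares, so that a fall with LPS does not follow from them.

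Promoters of the members were taken from RefSeq (GRCm38.p6), as the 250 bases before to 50 bases after a transcription start; 30 of the 37 genes matched, with 36 promoters. Asah1, Atp6v1b2, Atp6v1c1, Atp6v1h, Ctsb, Ctsh and Npc1 had no entry. The 8-letter CLEAR core TCACGTGA, which reads the same on both strands and contains CACGTG, was found in the promoters of 7 of the 30 genes. They are the genes of 2 V-ATPase subunits, 3 hydrolases and 2 membrane proteins. Their windows are shown because these 7 genes are read against their response to DSF further on. Capitals mark the core, and 6 bases stand on each side, 5′ to 3′ on the strand of the gene.
Atp6v0d1: ctgcggTCACGTGAgacgcg
Atp6v1a: tttaaaTCACGTGAtaggct
Ctsa: aaactgTCACGTGAtgcaga
Ctsa: agatgcTCACGTGAccagag
Ctsd: cgcgtcTCACGTGAcccgtt
Gla: gattgaTCACGTGAgcatct
Gla: tctcggTCACGTGAgcaact
Cln3: gtactgTCACGTGAccccca
Mcoln1: ccccgcTCACGTGAccgcgg

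The core was in 7 of the 36 member promoters (19.4%), in 0.974% of all 32851 promoters of the table and in 1.74% of the 13250 promoters of genes tested. The 6-letter CACGTG was in 12 member promoters (33.3%), against 7.15% of all promoters and 9.74% of those of genes tested. TGACNNNGC, a motif of the antioxidant response element read on both strands, was in 25% of member promoters and 12.4% of all promoters (14.4% for genes tested). A match is a string of letters in this window and not evidence of binding. Since the CLEAR element is known from promoters of many lysosomal genes, its frequency among the members is a description and no independent result.

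Whole promoters are given for the gene with the largest response to DSF in each class among those with an entry. Capitals mark CACGTG and TGACNNNGC on either strand. They are Gla (chrX:134600956-134601255, minus strand), Atp6v1e1 (chr6:120822649-120822948, minus strand), Scarb2 (chr5:92505608-92505907, minus strand) and Npc2 (chr12:84773063-84773362, minus strand), all in GRCm38.p6.
Gla: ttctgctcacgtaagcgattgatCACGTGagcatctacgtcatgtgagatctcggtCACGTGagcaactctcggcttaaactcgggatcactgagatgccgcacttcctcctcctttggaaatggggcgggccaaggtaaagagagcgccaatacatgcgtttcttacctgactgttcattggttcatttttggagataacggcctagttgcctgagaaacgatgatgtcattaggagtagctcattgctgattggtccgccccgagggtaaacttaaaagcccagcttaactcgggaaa
Atp6v1e1: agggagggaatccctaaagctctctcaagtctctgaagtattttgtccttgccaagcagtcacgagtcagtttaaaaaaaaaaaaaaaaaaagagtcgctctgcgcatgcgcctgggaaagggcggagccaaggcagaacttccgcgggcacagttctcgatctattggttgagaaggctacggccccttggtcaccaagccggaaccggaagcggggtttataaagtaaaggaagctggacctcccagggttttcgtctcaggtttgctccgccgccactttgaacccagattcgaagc
Scarb2: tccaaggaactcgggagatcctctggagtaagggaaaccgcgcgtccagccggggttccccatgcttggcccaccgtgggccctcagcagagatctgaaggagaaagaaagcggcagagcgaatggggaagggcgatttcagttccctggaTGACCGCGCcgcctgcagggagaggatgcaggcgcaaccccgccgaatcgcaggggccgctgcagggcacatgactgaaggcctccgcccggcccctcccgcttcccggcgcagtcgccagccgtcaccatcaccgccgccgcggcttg
Npc2: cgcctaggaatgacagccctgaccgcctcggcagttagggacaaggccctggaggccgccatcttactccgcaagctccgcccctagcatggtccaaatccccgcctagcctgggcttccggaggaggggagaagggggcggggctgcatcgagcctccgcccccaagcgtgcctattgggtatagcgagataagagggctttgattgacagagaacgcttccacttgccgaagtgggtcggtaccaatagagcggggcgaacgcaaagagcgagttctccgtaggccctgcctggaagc
Gla carries 2 CACGTG strings and Scarb2 1 TGACNNNGC string, while neither string was found in the windows of Atp6v1e1 and Npc2.

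DSF moved the V-ATPase genes mostly upward and the hydrolase genes in both directions. Given without LPS, the drug raised 5 of the 8 V-ATPase genes and lowered 1 (median log2 fold change 0.45). Of the 20 hydrolase genes 7 rose and 8 fell, with a median of -0.12, and the 4 lipid hydrolase genes had a median of -0.57 with 3 falls. Among the 7 membrane protein genes 5 rose and 1 fell (median 0.29), and of the 2 cofactor genes Npc2 rose. The median over all genes tested was 0.050. The words rose, fell and called are kept for genes where edgeR's quasi-likelihood test gave a Benjamini-Hochberg adjusted p under 0.05 over all genes tested.

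In all, 28 of the 37 members were called with DSF (75.7%), 18 up and 10 down. The test called 58.1% of all genes tested in this comparison (31% up, 27.1% down) and 71.9% of the 6347 genes with a mean of at least 30 CPM, a level that 35 of the 37 members reached. By position, 20 members had both DSF libraries above both control libraries (42.2% of all genes tested did) and 14 had both below (38%). With plain library size in place of scaled size 13 members rose and 15 fell. The members' share of calls was thus close to that of genes with at least 30 CPM. That level is a floor and not a match, as the median member had a mean of 170 CPM. Medians and counts describe these classes; the difference between the classes was not tested, since members of a class are not replicates.

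**Figure D1:**
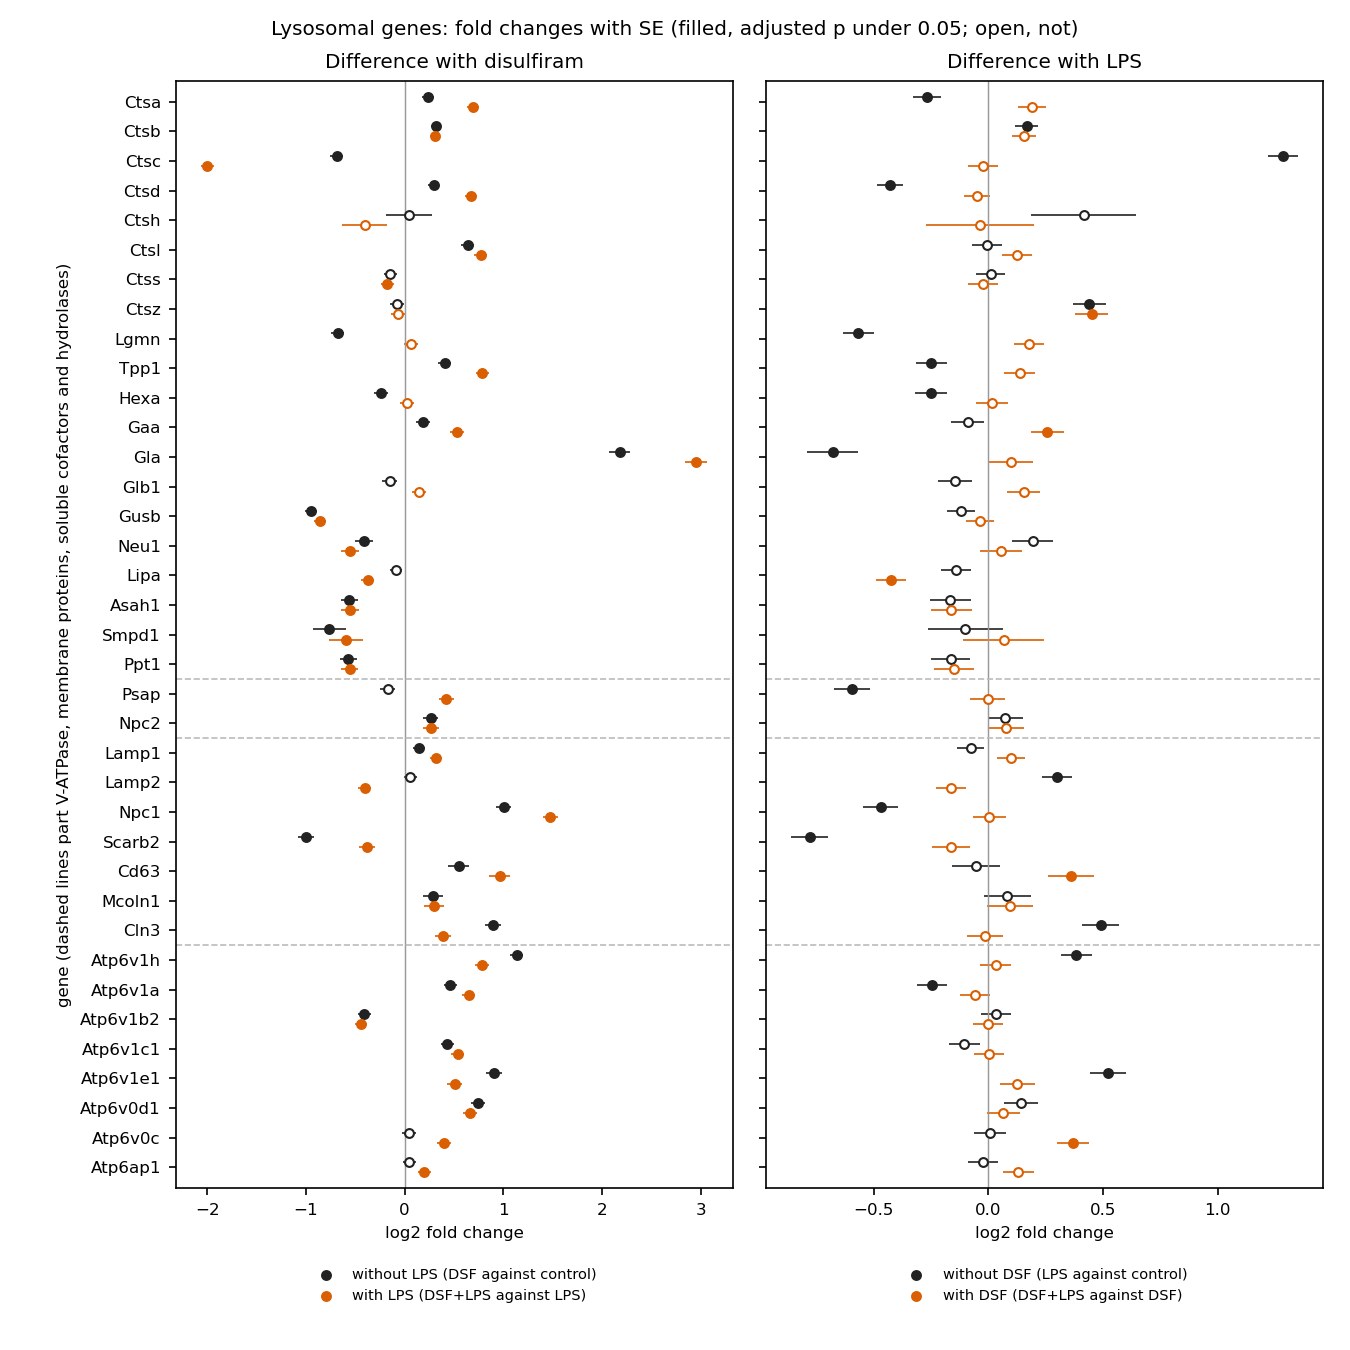
Log2 fold change (x axis) of each of the 37 genes (y axis, in 4 blocks from hydrolases at the top to V-ATPase at the bottom) with DSF (left) and with LPS (right). Points are edgeR estimates, bars are ± SE, and filled points had an adjusted p under 0.05. Gla lies farthest to the right with DSF (2.18 without LPS and 2.96 with it), and with LPS 1 gene, Ctsc, passes 1 in the absence of DSF.

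Among the proteases, the largest response was in Ctsc, the gene of dipeptidyl peptidase I, which activates granule serine proteases. Ctsc had 193 and 199 CPM in control, 119 and 124 under DSF, 475 and 478 under LPS and 122 and 117 under both agents. The 4 libraries with DSF lay below the control libraries whether or not LPS was added, and the LPS libraries stood above all others. With DSF alone Ctsc fell (log2 fold change -0.69, SE 0.066, adjusted p = 5.11e-07). Lgmn, the gene of the asparaginyl endopeptidase that matures cathepsins, had 617 and 594 CPM in control, 364 and 393 under DSF, 426 and 392 under LPS and 434 and 421 under both agents. It fell with DSF (log2 fold change -0.68, SE 0.066, adjusted p = 7.01e-07), and the 6 treated libraries all lay below the control pair.

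Several cathepsin genes moved the other way. Ctsl, a cysteine endopeptidase gene, had 405 and 395 CPM in control, 590.1 and 657 under DSF, 405 and 393 under LPS and 695 and 666 under both agents, so that the libraries with DSF did not overlap those without. It rose with DSF (log2 fold change 0.64, SE 0.066, adjusted p = 1.16e-06). Tpp1, the gene of a tripeptidyl peptidase deficient in a childhood ceroid lipofuscinosis, had 143 and 151 CPM in control, 191 and 198 under DSF, 124 and 123 under LPS and 214 and 214 under both agents and rose with DSF (log2 fold change 0.40, SE 0.067, adjusted p = 0.000119). Ctsd had 846 and 826 CPM in control, 1033 and 1015 under DSF, 640.3 and 602 under LPS and 982 and 998 under both agents and rose by 0.29 (SE 0.057, adjusted p = 5e-04) on the log2 scale (0.19 with plain library size). All 4 libraries with DSF were above the control pair in each of these 3 genes. Smaller rises were called for Ctsb (0.32) and Ctsa (0.24), the latter the gene of a carboxypeptidase that protects β-galactosidase and neuraminidase. Ctsa lost its call without control replicate 2 or DSF replicate 2 (weakest of these 0.15, adjusted p = 0.0927, without DSF replicate 2). The Ctsa call was also lost with plain library size (0.13, adjusted p = 0.0511). Ctss, Ctsz and Ctsh did not pass the test.

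The glycosidase genes were divided. Gla encodes α-galactosidase A, the enzyme missing in Fabry disease, which removes terminal galactose from glycolipids. Gla had 37.9 and 34.7 CPM in control, 154 and 175 under DSF, 23.2 and 22.0 under LPS and 193 and 158 under both agents. Every library with DSF was above every library without it, and the fitted rise with DSF was 4.53-fold (log2 fold change 2.18, SE 0.11, adjusted p = 4.08e-10). Gusb, the β-glucuronidase gene, had 587 and 569.7 CPM in control, 304 and 297 under DSF, 546 and 518 under LPS and 293 and 293 under both agents, with the 4 DSF libraries all below the others. It fell by 0.94 (SE 0.061, adjusted p = 8.58e-09) on the log2 scale. Neu1, a sialidase gene, had 38.0 and 38.7 CPM in control, 28.9 and 28.6 under DSF, 44.6 and 43.0 under LPS and 30.5 and 29.3 under both agents and fell (log2 fold change -0.41, SE 0.091, adjusted p = 0.00122). Smaller changes were called, in the β-hexosaminidase subunit gene Hexa (-0.24) and in the acid α-glucosidase gene Gaa (0.19). Hexa lost its call without control replicate 1 or DSF replicate 2 (weakest of these -0.22, adjusted p = 0.0576, without DSF replicate 2). The Hexa call was also lost with the filter at 1 CPM in every library (-0.15, adjusted p = 0.0662). Gaa lost its call without control replicate 1, control replicate 2, DSF replicate 1, DSF replicate 2, LPS replicate 1 or LPS replicate 2 (weakest of these 0.15, adjusted p = 0.233, without control replicate 2). The Gaa call was also lost with plain library size (0.084, adjusted p = 0.325) and with no filter (0.15, adjusted p = 0.178). Glb1, the β-galactosidase gene, was not called.

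The 4 genes classed here as lipid hydrolases formed the one subclass in which no gene rose in any of the 4 pairwise comparisons. Gla, which acts on glycolipids and rose with DSF, was counted with the glycosidases. Asah1, the acid ceramidase gene, had 123 and 113 CPM in control, 78.7 and 80.7 under DSF, 109 and 101 under LPS and 76.9 and 65.4 under both agents. Ppt1, which encodes a thioesterase that removes palmitate from proteins, had 69.7 and 68.3 CPM in control, 45.4 and 47.5 under DSF, 62.4 and 60.8 under LPS and 44.2 and 39.3 under both agents. Both genes had every DSF library below every library without the drug. With DSF the log2 fold changes were -0.56 (SE 0.089, adjusted p = 8.06e-05) and -0.57 (SE 0.086, adjusted p = 4.83e-05). Smpd1, the acid sphingomyelinase gene, had 9.78 and 9.76 CPM in control, 6.52 and 4.96 under DSF, 9.13 and 9.08 under LPS and 6.06 and 6.00 under both agents and fell (log2 fold change -0.76, SE 0.17, adjusted p = 0.00138), from a low level. Lipa, the acid lipase gene that frees cholesterol from its esters, had 298 and 312 CPM in control, 297 and 277 under DSF, 274 and 279 under LPS and 213 and 214 under both agents and was not called with DSF alone.

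**Figure D2:**
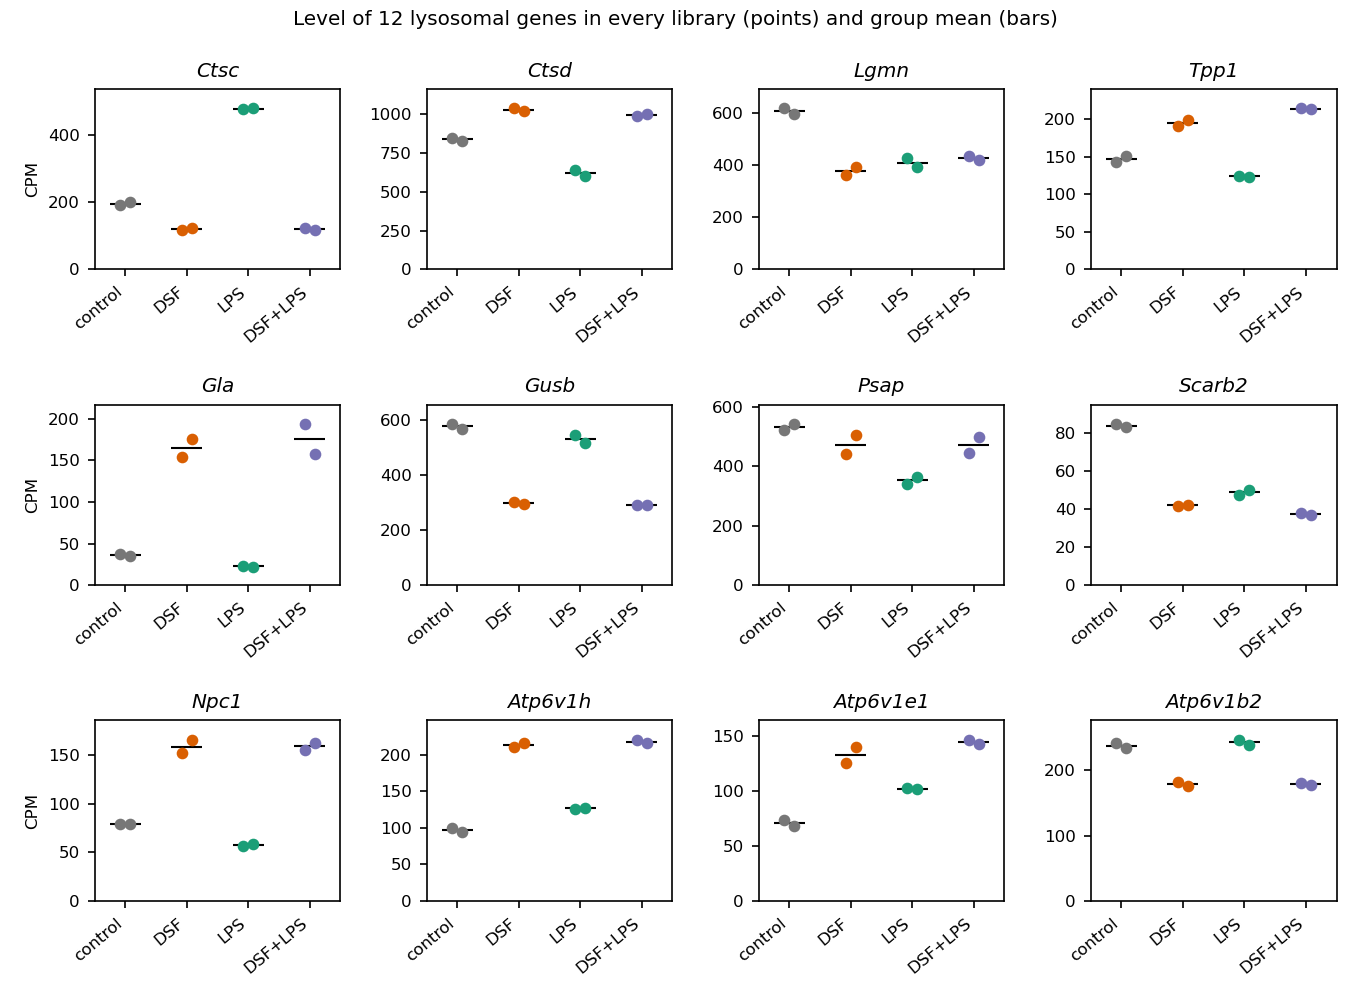
CPM (y axis, from 0, linear) of 12 of the 37 genes in each library (points) by group (x axis), with the group mean as a bar. In Gla and Npc1 both pairs with DSF sit above the other libraries; in Ctsc the LPS pair, at 475 and 478 CPM, stands above all others.

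Among the membrane proteins, Npc1 and Scarb2 moved furthest and in opposite directions. Npc1, which exports cholesterol from lysosomes, had 79.7 and 79.0 CPM in control, 152 and 166 under DSF, 56.2 and 58.4 under LPS and 156 and 163 under both agents and rose 2.00-fold with DSF (log2 fold change 1.00, SE 0.075, adjusted p = 4.15e-08). Scarb2, the gene of LIMP-2, which carries glucocerebrosidase to the lysosome, had 84.7 and 83.2 CPM in control, 41.8 and 42.1 under DSF, 47.6 and 50.2 under LPS and 37.8 and 37.1 under both agents. It fell with DSF by 1.00 (SE 0.081, adjusted p = 9.65e-08) on the log2 scale, and all 6 treated libraries lay below the control pair. Cln3, mutated in juvenile ceroid lipofuscinosis, had 45.8 and 44.8 CPM in control, 81.4 and 87.0 under DSF, 62.8 and 64.5 under LPS and 85.9 and 80.6 under both agents and rose by 0.89 (SE 0.081, adjusted p = 2.97e-07). Cd63, a tetraspanin gene, had 43.4 and 37.9 CPM in control, 54.2 and 64.6 under DSF, 37.7 and 40.5 under LPS and 73.7 and 78.8 under both agents and rose by 0.55 (SE 0.10, adjusted p = 0.000383). The calcium channel gene Mcoln1 (0.29) and Lamp1 (0.15) were called with smaller values. Mcoln1 lost its call without control replicate 2, DSF replicate 1 or DSF replicate 2 (weakest of these 0.20, adjusted p = 0.221, without control replicate 2). The Mcoln1 call was also lost with plain library size (0.18, adjusted p = 0.129) and with no filter (0.25, adjusted p = 0.0698). Lamp1 lost its call without any 1 of the 8 libraries (weakest of these 0.074, adjusted p = 0.412, without DSF replicate 2). The Lamp1 call was also lost with plain library size (0.042, adjusted p = 0.527) and with no filter (0.11, adjusted p = 0.202). With the filter at 1 CPM in every library Lamp1 was 0.23. Lamp2 was not called.

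Of the soluble cofactors, Npc2, which hands cholesterol to NPC1, had 203 and 207 CPM in control, 237 and 255 under DSF, 226 and 205 under LPS and 275 and 244 under both agents and rose with DSF (log2 fold change 0.27, SE 0.077, adjusted p = 0.00869). Npc2 lost its call without control replicate 1 or DSF replicate 2 (weakest of these 0.18, adjusted p = 0.135, without DSF replicate 2). The Npc2 call was also lost with plain library size (0.16, adjusted p = 0.0759). Psap, the precursor of the saposins that present lipids to hydrolases, had 524 and 542 CPM in control, 442 and 505 under DSF, 341 and 365 under LPS and 446 and 498 under both agents and was not called with DSF alone.

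The V-ATPase genes that rose with DSF belonged to both sectors. Atp6v1h, a regulatory V1 subunit gene, had 99.8 and 94.6 CPM in control, 210.3 and 217 under DSF, 126 and 127 under LPS and 220.5 and 216 under both agents and rose 2.20-fold (log2 fold change 1.14, SE 0.068, adjusted p = 3.96e-09). Atp6v1e1, a subunit gene of the peripheral stalk, had 73.6 and 68.3 CPM in control, 126 and 139.7 under DSF, 102 and 101 under LPS and 146 and 143 under both agents and rose by 0.90 (SE 0.078, adjusted p = 1.89e-07). In both genes the order was the same, control below LPS below the 2 pairs with DSF. Atp6v0d1, which couples the sectors, had 86.7 and 87.6 CPM in control, 139 and 152 under DSF, 95.2 and 97.1 under LPS and 153 and 152 under both agents and rose by 0.74 (SE 0.073, adjusted p = 7.06e-07). The catalytic subunit gene Atp6v1a had 302 and 309 CPM in control, 419.8 and 423 under DSF, 259 and 256 under LPS and 424 and 385 under both agents and rose by 0.46 (SE 0.065, adjusted p = 2.57e-05). Atp6v1c1, another stalk gene, had 153 and 146 CPM in control, 197 and 205 under DSF, 138 and 139 under LPS and 206 and 198 under both agents and rose by 0.43 (SE 0.067, adjusted p = 6.78e-05).

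One V-ATPase gene went down. Atp6v1b2 encodes the subunit that alternates with the catalytic one in the V1 head, and had 242 and 234 CPM in control, 182 and 176 under DSF, 247 and 239 under LPS and 180.3 and 178 under both agents. All 4 DSF libraries were below the others, and it fell by 0.41 (SE 0.065, adjusted p = 7.99e-05) with DSF alone. Its partner Atp6v1a thus rose while Atp6v1b2 fell. Per kilobase they stood at 72.2 and 84.1 CPM in control and at 99.5 and 63.4 CPM with DSF. Which of them is higher in control depends on the reference lengths used, 4234 and 2825 bases. Before division by length the means were 306 and 238 CPM in control and 421 and 179 CPM with DSF. The proton ring gene Atp6v0c and the accessory gene Atp6ap1 were not called with DSF alone. As a share of unscaled totals the 8 genes took 0.146% ± 0.00226 in control and 0.172% ± 0.00184 with DSF (SD, n = 2). The 20 hydrolase genes took 0.810% ± 0.0122 and 0.797% ± 0.00969 (SD, n = 2). The scaling factors behind CPM were 1.085 and 1.084 in control and 1.019 and 1.001 with DSF. On the CPM scale DSF thus stands higher relative to control, and the direction for the hydrolase genes need not hold.

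**Figure D3:**
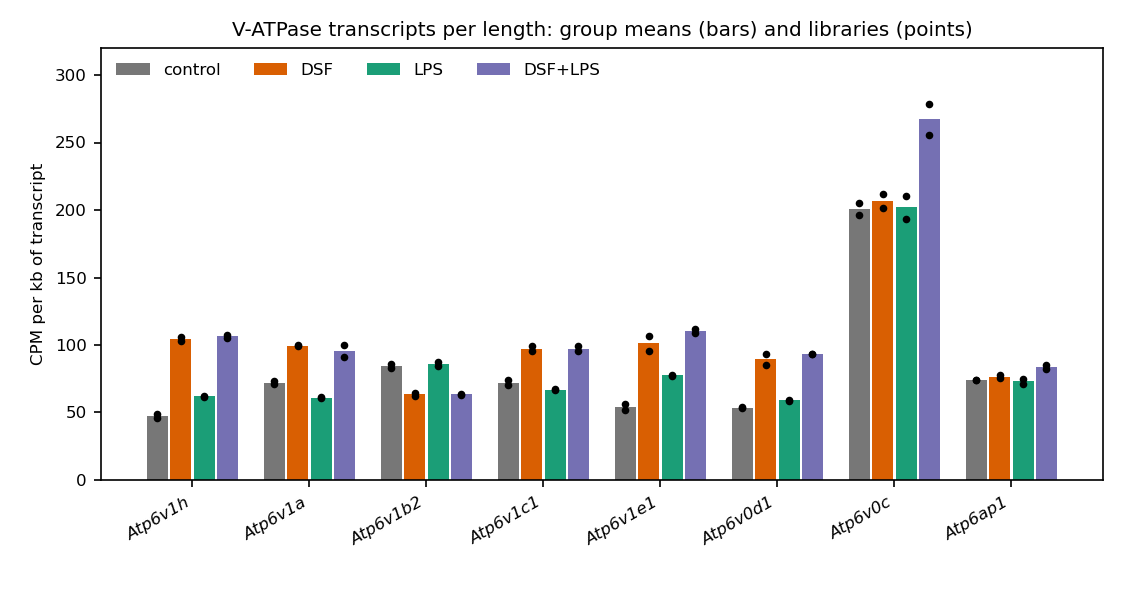
Level per kilobase of transcript (y axis, CPM per kb, linear from 0) of the 8 V-ATPase genes (x axis) in the 4 groups; bars are group means and points the 2 libraries. In control Atp6v1h has 47.4 and Atp6v1b2 84.1 CPM per kb; with DSF the order is reversed, at 104 and 63.4.

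With LPS present as well, nearly all of the genes called with DSF alone were called again, in the same direction. In the comparison of DSF+LPS with LPS, 21 members rose and 11 fell, 86.5% of the 37, where 65.3% of all genes tested (33.7% up, 31.6% down) and 78.2% of those with at least 30 CPM were called. This comparison shares no library with that of DSF and control: 18 genes rose in both, 8 fell in both, none was called in opposite directions and 3 were called in neither. The 26 genes called alike are 70.3% of the members, where 46.1% of all genes tested (24.9% up, 21.2% down) and 59.2% of those with at least 30 CPM were called alike. By position, 22 members had both DSF+LPS libraries above both LPS libraries (42.7% of all genes tested) and 12 both below (39.5%). Lgmn and Hexa were called only without LPS, and Ctss, Lipa, Psap, Lamp2, Atp6v0c and Atp6ap1 only with it. Of those 8 genes the interaction between the drug and LPS, which tests the difference itself, was called for Lgmn, Lipa, Psap, Lamp2 and Atp6v0c.

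The medians in DSF+LPS against LPS were 0.52 for the V-ATPase genes, of which 7 rose and 1 fell, -0.018 for the hydrolases (7 up, 8 down; 0.088 with the filter at 1 CPM in every library) and 0.32 for the membrane proteins (5 up, 2 down), beside 0.042 for all genes tested. Gla rose 7.77-fold (log2 fold change 2.96, SE 0.11, adjusted p = 1.49e-11) and Npc1 2.78-fold (log2 fold change 1.48, SE 0.076, adjusted p = 5.01e-10). Ctsc fell by 2.00 (SE 0.067, adjusted p = 4.64e-12), and its libraries overlapped those with DSF alone. The protease genes Tpp1 (0.79), Ctsl (0.77), Ctsa (0.69), Ctsd (0.67) and Ctsb (0.31) rose again. All 4 lipid hydrolase genes fell, with log2 fold changes of -0.59 (SE 0.17, adjusted p = 0.00696) for Smpd1, -0.56 (SE 0.087, adjusted p = 5.29e-05) for Ppt1, -0.56 (SE 0.090, adjusted p = 7.31e-05) for Asah1 and -0.37 (SE 0.065, adjusted p = 0.000149) for Lipa. Among the glycosidases Gaa rose (0.53), and Gusb (-0.86) and Neu1 (-0.55) fell.

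Of the V-ATPase genes, Atp6v1h rose by 0.78 (SE 0.067, adjusted p = 1.22e-07), Atp6v0d1 by 0.67 (SE 0.072, adjusted p = 1.52e-06) and Atp6v1a by 0.65 (SE 0.065, adjusted p = 6.36e-07). Atp6v1c1 (0.54), Atp6v1e1 (0.51) and Atp6v0c (0.40) rose by less, and Atp6v1b2 fell (log2 fold change -0.44, SE 0.065, adjusted p = 3.03e-05). Atp6ap1 rose by 0.20. Atp6ap1 lost its call without LPS replicate 1, LPS replicate 2 or DSF+LPS replicate 1 (weakest of these 0.16, adjusted p = 0.153, without LPS replicate 2). The Atp6ap1 call was also lost with plain library size (0.15, adjusted p = 0.0551). With the filter at 1 CPM in every library it was 0.31. The cofactor genes Psap (0.42) and Npc2 (0.27) and the membrane protein genes Cd63 (0.96), Cln3 (0.39), Lamp1 (0.32) and Mcoln1 (0.30) rose as well. Lamp2 (-0.40) and Scarb2 (-0.38) fell, as did Ctss (-0.18), the protease gene of invariant chain processing. Ctss lost its call without LPS replicate 1, LPS replicate 2 or DSF+LPS replicate 2 (weakest of these -0.12, adjusted p = 0.183, without DSF+LPS replicate 2). The Ctss call was also lost with DESeq2's size factors (-0.15, adjusted p = 0.069), with the filter at 1 CPM in every library (-0.072, adjusted p = 0.342), with the compared groups alone (-0.14, adjusted p = 0.127) and with DESeq2 (-0.15, adjusted p = 0.0815). Npc2 lost its call without LPS replicate 2 or DSF+LPS replicate 1 (weakest of these 0.19, adjusted p = 0.116, without LPS replicate 2). Mcoln1 lost its call without LPS replicate 1, LPS replicate 2 or DSF+LPS replicate 2 (weakest of these 0.19, adjusted p = 0.123, without DSF+LPS replicate 2). The other calls in DSF+LPS against LPS held without any 1 library.

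LPS alone raised 7 members and lowered 10, with few large changes. That is 45.9% of the members, where 29% of all genes tested (15.2% up, 13.8% down) and 40.9% of those with at least 30 CPM were called, so that the members' share was near that of abundant genes. By position, 10 members had both LPS libraries above both control libraries (34.2% of all genes tested) and 19 both below (31.3%). The hydrolases had 3 rises and 6 falls (median -0.13), the V-ATPase genes 2 rises and 1 fall (median 0.020), and the membrane proteins 2 of each. Relative to plain library size in place of scaled size, the median of all genes moved from 0.017 to -0.13, and the calls from 52.5% to 30% upward. The members were then 5 up and 19 down, with medians of -0.29 for the hydrolases and -0.14 for the V-ATPase genes. Values given here are those of the scaled libraries.

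Ctsc had the largest response to LPS of the members, a 2.44-fold rise (log2 fold change 1.28, SE 0.065, adjusted p = 8.39e-10). Ctsz rose by 0.44 (SE 0.072, adjusted p = 0.000256), from 932 and 882 to 1289.6 and 1171 CPM, and was 0.28 with plain library size. Ctsb rose by 0.17. Ctsb lost its call without control replicate 1, control replicate 2 or LPS replicate 1 (weakest of these 0.13, adjusted p = 0.172, without LPS replicate 1). The Ctsb call was also lost with plain library size (0.0083, adjusted p = 0.934). The V-ATPase genes Atp6v1e1 (0.52, SE 0.078, adjusted p = 0.000112) and Atp6v1h (0.38, SE 0.068, adjusted p = 0.000507) and the membrane protein gene Cln3 (0.49, SE 0.081, adjusted p = 0.000275) rose, and these 3 rose with DSF too. With plain library size Atp6v1h was 0.23. Lamp2 rose by 0.30. Lamp2 lost its call without control replicate 2 (0.26, adjusted p = 0.0537). The Lamp2 call was also lost with plain library size (0.14, adjusted p = 0.114).

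The largest falls with LPS were in Scarb2, at -0.78 (SE 0.080, adjusted p = 2.36e-06) on the log2 scale, Gla, at -0.68 (SE 0.11, adjusted p = 0.000263), and Psap, at -0.60 (SE 0.077, adjusted p = 2.64e-05). Lgmn had -0.57 (SE 0.066, adjusted p = 9.27e-06), Npc1 -0.47 (SE 0.077, adjusted p = 0.000245), Ctsd -0.43 (SE 0.057, adjusted p = 3.7e-05) and Ctsa -0.27 (SE 0.060, adjusted p = 0.00336). In each of these 7 genes both LPS libraries lay below both control libraries. With plain library size Ctsa was -0.43. Smaller falls were called for Hexa (-0.25), Tpp1 (-0.25) and Atp6v1a (-0.25). Hexa lost its call without control replicate 1, control replicate 2, LPS replicate 1 or LPS replicate 2 (weakest of these -0.23, adjusted p = 0.12, without LPS replicate 1). Tpp1 lost its call without control replicate 2, LPS replicate 1 or LPS replicate 2 (weakest of these -0.21, adjusted p = 0.126, without control replicate 2). Atp6v1a lost its call without control replicate 2, LPS replicate 1 or LPS replicate 2 (weakest of these -0.23, adjusted p = 0.0811, without control replicate 2). With plain library size these 3 were larger and called, at -0.41 for Hexa, -0.41 for Tpp1 and -0.40 for Atp6v1a.

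After DSF, LPS moved few of these genes. In DSF+LPS against DSF 4 members rose and 1 fell, 13.5% of the 37, where 12.1% of all genes tested (5.53% up, 6.53% down) and 21.9% of those with at least 30 CPM were called: the members' share was near the first and below the second. By position, 15 members had both DSF+LPS libraries above both DSF libraries (24.3% of all genes tested) and 7 both below (27.5%). Ctsz rose by 0.45 (SE 0.072, adjusted p = 0.00142), from 808 and 915 to 1138 and 1218 CPM, and Lipa fell by 0.43 (SE 0.065, adjusted p = 0.00101). Those 2 calls held without any 1 library and under every other setting tried. Atp6v0c rose by 0.37, Cd63 by 0.36 and Gaa by 0.26. Atp6v0c lost its call without DSF replicate 1 (0.34, adjusted p = 0.0564). Cd63 lost its call without DSF replicate 1, LPS replicate 1 or LPS replicate 2 (weakest of these 0.25, adjusted p = 0.319, without DSF replicate 1). The Cd63 call was also lost with plain library size (0.26, adjusted p = 0.0979), with the compared groups alone (0.37, adjusted p = 0.0935) and with the counts of its pseudogene added (0.072, adjusted p = 0.538). Gaa lost its call without control replicate 1, control replicate 2, DSF replicate 1, DSF replicate 2, LPS replicate 1, LPS replicate 2 or DSF+LPS replicate 2 (weakest of these 0.26, adjusted p = 0.167, without DSF replicate 1). The Gaa call was also lost with plain library size (0.15, adjusted p = 0.164) and with the compared groups alone (0.27, adjusted p = 0.11). Of the 17 genes called with LPS alone, Ctsz was also called here, in the same direction, and the other 16 were not. That is 2.7% of the members called alike in both comparisons, where 4.96% of all genes tested and 8.95% of those with at least 30 CPM were. Without DSF replicate 1 a single member rose, and without LPS replicate 1 or LPS replicate 2 it was 2 members. With plain library size 2 members rose and 3 fell, and the upward share of calls over all genes moved from 45.8% to 17.5%. The medians were 0.061 for the hydrolases and 0.048 for the V-ATPase genes (-0.045 and -0.057 with plain library size), and -0.0034 for all genes (-0.11).

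The interaction, the response to LPS after DSF minus that without it, was called for 16 members (43.2%), 10 with a higher and 6 with a lower value after DSF. The test called 19.7% of all genes tested (7.58% up, 12.2% down) and 31% of those with at least 30 CPM. The largest was in Ctsc, at -1.31 (SE 0.092, adjusted p = 1.57e-07): LPS raised it in the solvent, while the DSF+LPS pair (122 and 117 CPM) overlapped the DSF pair (119 and 124). Gla had 0.78 (SE 0.15, adjusted p = 0.0017) and Lgmn 0.74 (SE 0.094, adjusted p = 4.83e-05), with Lgmn at 0.18 for LPS after DSF (adjusted p = 0.103; 0.071 with plain library size). Scarb2 had 0.62 (SE 0.12, adjusted p = 0.00147), with -0.16 for LPS after DSF, and with plain library size that value was -0.27 and called (adjusted p = 0.0441). Psap had 0.59 (SE 0.11, adjusted p = 0.00124), Npc1 0.47 (SE 0.11, adjusted p = 0.00538), Ctsa 0.46 (SE 0.085, adjusted p = 0.00144) and Ctsd 0.38 (SE 0.081, adjusted p = 0.00386). In these 7 genes LPS alone had lowered the transcript. Cln3 (-0.51, SE 0.11, adjusted p = 0.00536) and Lamp2 (-0.46, SE 0.092, adjusted p = 0.00244), which LPS alone had raised, had lower values after DSF.

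The other 6 interactions each lost their call without at least 1 library. Tpp1 had 0.38, Gaa 0.35 and Atp6v0c 0.36. Tpp1 lost its call without control replicate 2 or LPS replicate 2 (weakest of these 0.34, adjusted p = 0.0659, without control replicate 2). Gaa lost its call without control replicate 1, control replicate 2, DSF replicate 1 or LPS replicate 2 (weakest of these 0.29, adjusted p = 0.161, without LPS replicate 2). Atp6v0c lost its call without control replicate 1, DSF replicate 1 or LPS replicate 2 (weakest of these 0.30, adjusted p = 0.124, without LPS replicate 2). Atp6v1e1 had -0.40, Atp6v1h -0.35 and Lipa -0.29. Atp6v1e1 lost its call without control replicate 2, DSF replicate 2, LPS replicate 1 or LPS replicate 2 (weakest of these -0.29, adjusted p = 0.132, without DSF replicate 2). Atp6v1h lost its call without control replicate 2, DSF replicate 1, DSF replicate 2, LPS replicate 1 or LPS replicate 2 (weakest of these -0.31, adjusted p = 0.0987, without control replicate 2). Lipa lost its call without any 1 of the 8 libraries (weakest of these -0.21, adjusted p = 0.223, without DSF replicate 1). The Lipa call was also lost with DESeq2's size factors (-0.27, adjusted p = 0.058), with plain library size (-0.23, adjusted p = 0.0923) and with no filter (-0.26, adjusted p = 0.092). Without control replicate 2, DSF replicate 2, LPS replicate 1 or LPS replicate 2, 3 members had a lower value after DSF, and no V-ATPase gene did. By class, 6 of 20 hydrolase genes had a higher value after DSF and 2 a lower one, and of 8 V-ATPase genes 1 and 2.

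**Figure D4:**
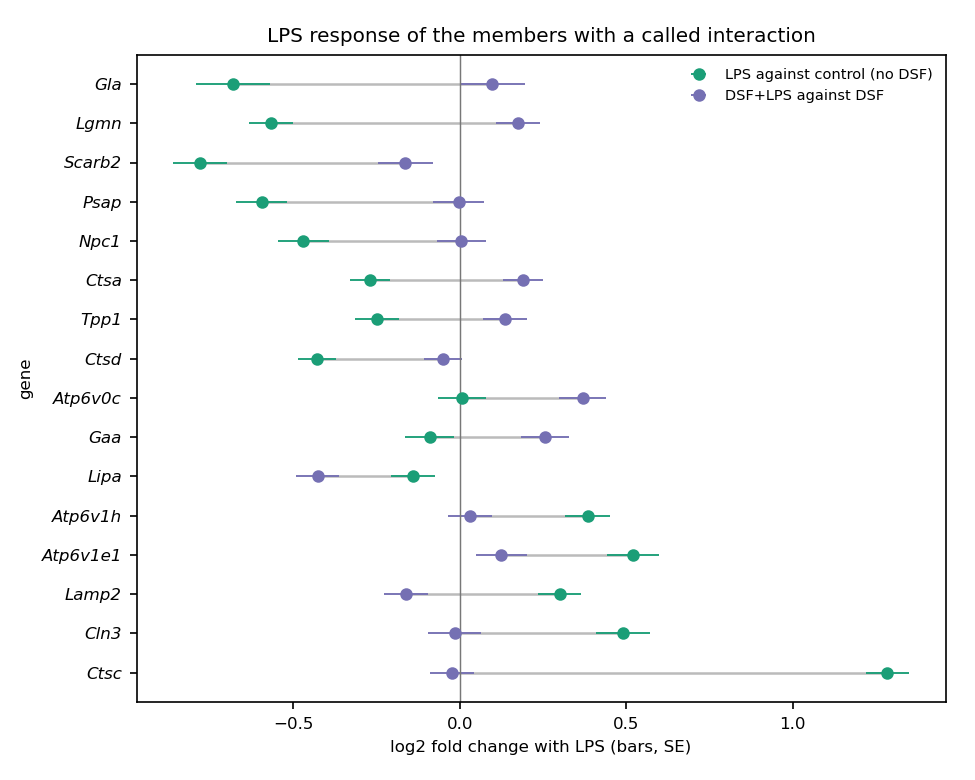
Log2 fold change with LPS (x axis) without DSF (green) and after DSF (violet) for the 16 genes with a called interaction (y axis), with bars of ± SE and a grey line joining the pair. The violet points lie nearer 0 than the green ones in most rows, as in Ctsc (1.28 without DSF), while Lipa, Gaa and Atp6v0c lie farther out after DSF.

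The promoters shown above were set beside the response to DSF alone as a description. All 7 genes with TCACGTGA rose (Gla, Cln3, Atp6v0d1, Atp6v1a, Ctsd, Mcoln1 and Ctsa, median log2 fold change 0.46). Of the 23 genes with a promoter entry and without the core 7 rose and 8 fell (median -0.089). With CACGTG 10 of 12 genes rose and 1, Lgmn, fell, and without it 4 of 18 rose and 7 fell. Some of these calls were lost without some libraries, as given above. They are Ctsa and Mcoln1, which carry both strings, and Gaa and Lamp1, which carry CACGTG alone. The calls of Hexa and Npc2, which carry neither, were lost in the same way. TGACNNNGC divided the members less, with 4 rises and 2 falls in 8 genes with it and 10 and 6 in 22 without. Among the tested genes that are not members, 37.6% of 213 genes with TCACGTGA rose with DSF and 29.6% fell, and 30.2% of 10231 genes without it rose and 31.4% fell. For CACGTG the shares that rose were 30.4% of 1193 and 30.3% of 9251. With TGACNNNGC 34% of 1768 such genes rose and 27.7% fell, and without it 29.6% of 8676 rose and 32.2% fell. Outside the members TGACNNNGC thus divided the genes more than CACGTG did. These counts are over genes and were not tested.

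Other genes of the organelle were counted from lists drawn up for the same pathway. Of 20 tested V-ATPase subunit and assembly genes that are not members, 11 rose and 4 fell with DSF (median 0.45), and 12 rose and 4 fell with DSF on top of LPS (median 0.47). Over all genes tested 31% rose and 27.1% fell with DSF (median 0.050), and 33.7% rose and 31.6% fell with DSF on top of LPS (median 0.042), which are the shares to set beside the list counts here and below. Atp6v1d, the V1 rotor gene, had 38.6 and 40.5 CPM in control, 96.6 and 99.3 under DSF, 41.0 and 42.6 under LPS and 105 and 81.6 under both agents and rose with DSF (log2 fold change 1.31, SE 0.10, adjusted p = 8.82e-08). Vma21, the gene of a V0 assembly factor, had 37.2 and 37.8 CPM in control, 74.5 and 67.4 under DSF, 114 and 121 under LPS and 59.2 and 63.4 under both agents. It rose with DSF (0.92) and with LPS (1.65) and was lower with both than with LPS alone (-0.94, interaction -1.86, SE 0.12, adjusted p = 5.6e-08). Tmem199, another assembly factor gene, rose with DSF (log2 fold change 1.08, SE 0.079, adjusted p = 3.45e-08). These medians lie close to those of the 8 member subunits.

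Of 48 other hydrolase genes, 4 rose and 24 fell with LPS (median -0.29), 9 rose and 17 fell with DSF (median -0.097), and 24 rose and 10 fell in DSF+LPS against LPS (median 0.24). The interaction was called upward for 17 and downward for 3. With LPS 15.2% of all genes tested rose and 13.8% fell (median 0.017), and the interaction was called upward for 7.58% and downward for 12.2%. Hyal1, a hyaluronidase gene, had 21.4 and 22.8 CPM in control, 28.2 and 24.7 under DSF, 2.50 and 2.44 under LPS and 19.2 and 18.3 under both agents. Sgsh, the heparan sulfamidase gene, had 22.0 and 21.8 CPM in control, 24.0 and 22.8 under DSF, 3.00 and 3.59 under LPS and 22.0 and 24.9 under both agents. In both, the LPS pair alone stood low: LPS changed them by -3.16 (SE 0.15, adjusted p = 3.91e-10) and -2.73 (SE 0.15, adjusted p = 1.55e-09), and the interactions were 2.66 (SE 0.19, adjusted p = 2.07e-07) and 2.73 (SE 0.19, adjusted p = 1.31e-07). Smpdl3b, a phosphodiesterase gene, fell with DSF (log2 fold change -1.31, SE 0.094, adjusted p = 2.74e-08) and was lower with both agents than with LPS alone (-1.69).

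Of 36 other membrane protein and transporter genes 12 rose and 12 fell with DSF, and 7 rose and 12 fell with LPS. Clcn7, the chloride-proton exchanger gene, had 103 and 100.4 CPM in control, 267 and 278 under DSF, 152 and 154 under LPS and 396 and 414 under both agents, the highest pair being that with both agents. It rose by 1.42 (SE 0.066, adjusted p = 2.93e-10) with DSF, and LPS after DSF raised it by 0.57 (SE 0.064, adjusted p = 6.42e-05). Mfsd12, a cysteine importer gene, had 267 and 264 CPM in control, 117 and 104 under DSF, 97.6 and 90.1 under LPS and 89.4 and 84.1 under both agents and fell with DSF (-1.27) and with LPS (-1.50). Of 17 sorting genes 2 rose and 8 fell with DSF. They include Gnptab, whose product makes the mannose 6-phosphate tag (-0.89, SE 0.082, adjusted p = 3.75e-07, from 160.2 and 168 to 95.5 and 81.7 CPM), and the adaptor gene Gga3 (-1.11, SE 0.11, adjusted p = 1.17e-06). Of 8 cathepsin inhibitor genes 3 rose and 1 fell with DSF, and the rise in the cystatin B gene Cstb was 0.56 (SE 0.068, adjusted p = 6.23e-06). Of 14 genes of the response to lysosomal damage 8 rose and 1 fell with DSF. The autophagy receptor gene Sqstm1 had 428 and 425 CPM in control, 3475 and 3454 under DSF, 1028 and 997 under LPS and 4147 and 5331 under both agents and rose 8.12-fold (log2 fold change 3.02, SE 0.091, adjusted p = 4.18e-12). Gabarapl1, an ATG8 gene, rose 4.18-fold (log2 fold change 2.06, SE 0.088, adjusted p = 1.14e-10).

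The transcripts of the factors that bind CLEAR elements did not move together. Of 19 biogenesis factor and regulator genes 9 rose and 5 fell with DSF. The test called 58.1% of all genes tested and 71.9% of those with at least 30 CPM. Tfeb and Tfec were below 30 CPM in every library. Tfeb had 25.0 and 24.9 CPM in control, 7.88 and 8.73 under DSF, 4.17 and 4.35 under LPS and 7.57 and 7.42 under both agents, the control pair being the highest, and fell with DSF (log2 fold change -1.59, SE 0.13, adjusted p = 1.33e-07) and with LPS (log2 fold change -2.55, SE 0.14, adjusted p = 2.83e-09). Tfec had 5.02 and 4.97 CPM in control, 7.24 and 8.06 under DSF, 29.7 and 28.1 under LPS and 7.12 and 9.66 under both agents, with an interaction of -2.40 (SE 0.23, adjusted p = 3.19e-06). Tfe3 had 91.4 ± 5.09 CPM (SD, n = 2) in control and 83.9 ± 3.36 with DSF, and was not called with DSF alone. Mitf, a related factor, had 172 and 182 CPM in control, 135 and 133 under DSF, 179 and 183 under LPS and 118 and 92.6 under both agents, and fell with DSF (log2 fold change -0.40, SE 0.094, adjusted p = 0.00201).

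**Figure D5:**
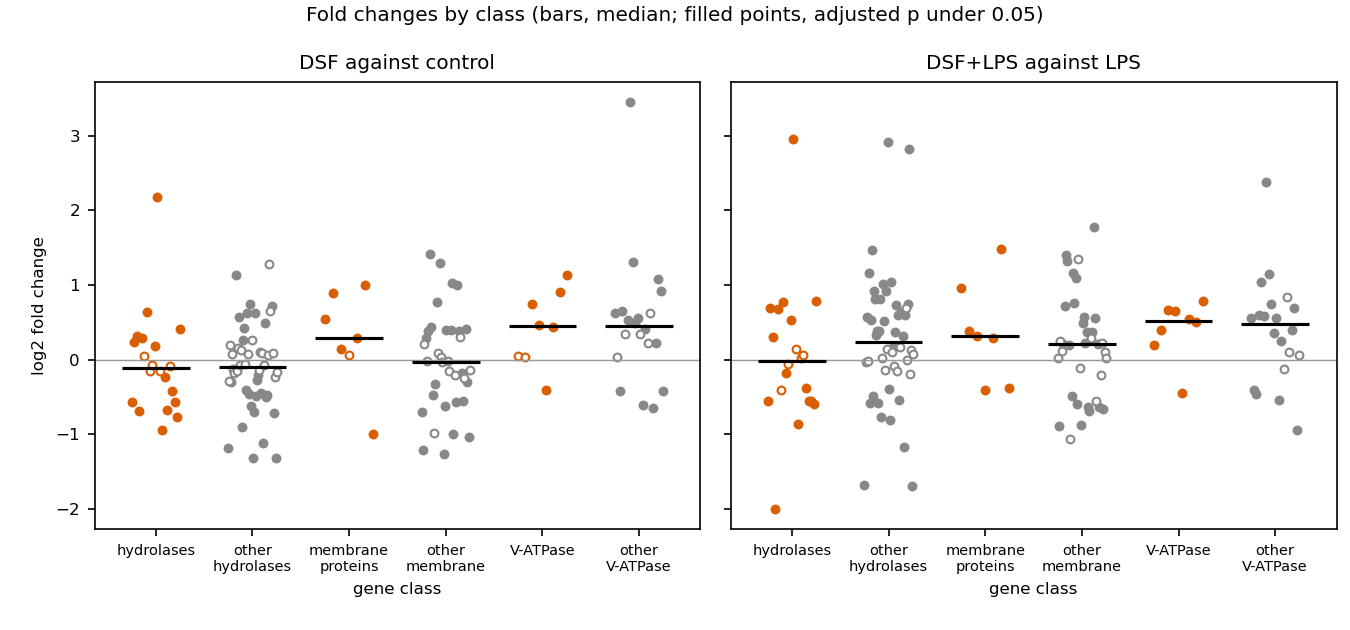
Log2 fold change (y axis) of single genes (points, filled where the adjusted p was under 0.05) by gene class (x axis), for DSF against control (left) and DSF+LPS against LPS (right); members are orange, other lysosomal genes grey, and bars are medians. The V-ATPase members and the other V-ATPase genes have like medians, 0.45 and 0.45 on the left and 0.52 and 0.47 on the right.

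Some counts may be shared between genes, because the sources used here do not state how reads with several matches, or the strand, were handled. Atp6v0c aligns over 465 bases at 99.8% identity with its pseudogene Atp6v0c-ps2, which took 86852 counts over the 8 libraries against 42046 for the gene. The pseudogene had 0.38 in DSF+LPS against DSF (adjusted p = 0.00359), like the gene. Cd63 aligns over 812 bases at 98.5% identity with Cd63-ps (22557 against 8676 counts). With the counts of gene and copy summed, Cd63 in DSF+LPS against LPS was 0.61 in place of 0.96. Gene models overlap on opposite strands for Ppt1 and Cap1 (129 exonic bases, 8975 and 123099 counts), for Cln3 and Apobr (442 bases, 11204 and 12061) and for Npc1 and Rmc1 (511 bases, 18368 and 8434). Glb1 and Tmppe overlap on the same strand by 165 bases (12752 and 4888 counts).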

How the data were processed

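Messenger RNA of 8 iBMDM libraries, 2 in each of 4 groups, was sequenced after TRIzol extraction with a poly(A) library kit, per the labels' protocols. The authors deposited a table of whole-number counts per Ensembl gene, with 1 column per library and no normalization. The submitters' processing notes name GRCm39 and DESeq2 without saying which step used them. Not given in the sources used here are the aligner, the counter, the annotation and the handling of strand. Symbols were taken from the reference gene table by identifier without its version (52081 of 55414 rows had one).

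The counts were scaled by TMM in edgeR 4.0.16 (R 4.3.3), filtered by expression (minimum count 10, minimum total 15), and fitted with 4 group means over all 8 libraries. The 16304 genes left were tested with the quasi-likelihood F test and p-values were adjusted by Benjamini-Hochberg over all of them at 0.05. The interaction is the LPS response after DSF minus that without it. SE was taken from the log2 fold change and its F value, and the biological coefficient of variation was 7.85%. CPM is the count over the effective library size, and levels per kilobase use the longest APPRIS principal transcript of GENCODE M21.

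The members and the gene lists were chosen with earlier results of these data known. All members are named. Other genes were named if they were among the largest called changes of their list with at least 5 CPM, and Tfeb, Tfe3, Mitf and Tfec always. Alternatives were DESeq2 1.42.0 and its size factors, library size alone, no filter, a filter at 1 CPM in every library, the compared groups alone, a term for the replicate number and leaving out each library in turn. Sums of gene and pseudogene counts, and crossed replicate numbers, were added after seeing the data. The range of library totals is given in the report, and with 2 libraries a group small changes can be missed.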

Additional observations from a re-analysis of the deposited data

Results flagged for a closer look

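The test of the difference between the LPS responses with and without DSF was called for 16 members, with values on the log2 scale for the response with DSF minus that without. Among proteases these were Ctsc at -1.31, Lgmn at 0.74, Ctsa at 0.46, Tpp1 at 0.38 and Ctsd at 0.38. Among other hydrolases and cofactors they were Gla at 0.78, Psap at 0.59, Gaa at 0.35 and Lipa at -0.29. Among membrane proteins they were Scarb2 at 0.62, Cln3 at -0.51, Npc1 at 0.47 and Lamp2 at -0.46. Among V-ATPase genes they were Atp6v1e1 at -0.40, Atp6v0c at 0.36 and Atp6v1h at -0.35. Of the other named genes, Sgsh had 2.73, Hyal1 2.66, Tfeb 2.40, Tfec -2.40 and Vma21 -1.86. The groups had 2 libraries each, too few to look for a single library that stands apart.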

How the results depend on the processing

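No called value changed sign under an alternative, while class medians near 0 did, as listed. Of the called members, 12 of 17 with LPS, 22 of 28 with DSF, 28 of 32 in DSF+LPS against LPS, 2 of 5 in DSF+LPS against DSF and 10 of 16 interactions kept their call under all settings tried other than the 2 added later. With library size alone, LPS lowered 19 members, 12 hydrolases and 3 V-ATPase genes, with medians of -0.29 and -0.14; the medians with DSF were -0.22 and 0.34, that of the V-ATPase genes in DSF+LPS against LPS was 0.47, and in DSF+LPS against DSF 2 members rose (1 hydrolase), 3 fell and the medians were -0.045 and -0.057. Its interaction had a V-ATPase median of 0.089 and 1 hydrolase lower, and Scarb2 in DSF+LPS against DSF became called (-0.27). Fitted on the compared groups alone, 11 hydrolases fell with LPS, 2 members (1 hydrolase) rose in DSF+LPS against DSF, and the V-ATPase median in DSF+LPS against LPS was 0.56. With the filter at 1 CPM the medians were -0.031 and 0.53 with DSF and 0.088 and 0.63 in DSF+LPS against LPS; without a filter the V-ATPase median with DSF was 0.41. With DESeq2 or its size factors the V-ATPase median in DSF+LPS against LPS was 0.55. With DESeq2, its size factors, no filter or the 1 CPM filter 4 hydrolases rose in DSF+LPS against DSF, and with its size factors or no filter 1 hydrolase had a lower interaction. The cause was not tested.

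Leaving out 1 library at a time gave these ranges. With LPS: V-ATPase genes down 0 to 1, V-ATPase median -0.025 to 0.058. With DSF: hydrolase median -0.18 to -0.13, V-ATPase median 0.40 to 0.45. In DSF+LPS against LPS: hydrolase median -0.074 to 0.00041, V-ATPase median 0.49 to 0.57. In DSF+LPS against DSF: members up 1 to 4 and down 1 to 2, hydrolases up 1 to 2 and down 1 to 2, V-ATPase genes up 0 to 1, V-ATPase median 0.027 to 0.10. Interaction: members down 3 to 5, hydrolases down 1, V-ATPase genes up 0 to 2 and down 0 to 2, hydrolase median 0.077 to 0.18, V-ATPase median 0.0058 to 0.10. Where a group kept 1 library, that library was assumed to vary like the others.

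With a replicate block the members were 7 up and 10 down with LPS, 18 and 11 with DSF, 21 and 11 in DSF+LPS against LPS, 4 and 1 in DSF+LPS against DSF, and 10 and 6 for the interaction. The libraries share only a number: deviations of same-numbered libraries correlated at -0.119 to 0.0531 over genes. With the numbers of DSF+LPS crossed, chosen after seeing the data, 4 members rose and 1 fell against DSF. At 2 libraries a group, Ctsh (3.28 to 5.40 CPM) and Smpd1 are the least precise.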
